A study of Mus musculus with 18 samples.

Results

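Fgf21, Enho, Angptl4, Nampt, Sirt1 and Ppargc1a were followed in mouse liver as 6 genes that encode secreted liver factors or sensors of energy state. They were taken by symbol from a table of 12019 genes, in which all 6 were found. The list was made with their values in these comparisons known, so they count as selected on their log2 fold changes and adjusted p-values, and the counts and p-values given for them describe them without testing them. Liver RNA came from C57BL/6J mice after 8 weeks of intervention that began at 21 weeks of age, with saline perfusion before the organ was taken. Control mice were fed ad libitum (6 libraries by the labels). The other groups have 3 libraries each: mice under 30% caloric restriction, and mice whose chow held rapamycin (42 mg/kg/day), metformin (a dose of 37.5 mg/kg/day) or TM5614 (20 mg/kg/day). Rapamycin inhibits the kinase mTOR, metformin is a glucose-lowering biguanide and TM5614 is an inhibitor of plasminogen activator inhibitor-1. The labels name no sex, no batch and no hour of collection.

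A fasting liver turns from making fat to burning it, and this turn is set by transcription factors and coactivators that read the energy state of the cell. FGF21 is a hormone that the liver secretes in fasting and under amino acid shortage, and ANGPTL4 is a secreted inhibitor of lipoprotein lipase; both genes are targets of the fatty acid receptor PPARalpha. Enho encodes adropin, a peptide linked to nutrient intake. NAMPT carries out the rate-limiting step that recycles nicotinamide to NAD, SIRT1 is a deacetylase that consumes NAD, and PGC-1alpha, the product of Ppargc1a, is a coactivator of mitochondrial and gluconeogenic genes that SIRT1 can deacetylate.

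The 250 bases before the start of Fgf21 and of Nampt are shown because these are the members that rose under caloric restriction. They were taken from the RefSeq promoter table of build GRCm38.p6, which held 4 of the 6 genes. Fgf21 lies on the minus strand of chromosome 7 (gene from 45613886 to 45615490, protein-coding), and the window shown, chr7:45615491-45615740, overlaps no annotated gene. Nampt lies on the plus strand of chromosome 12 (gene from 32819545 to 32853349, protein-coding), and its window, chr12:32820085-32820334, lies within the annotated gene but in none of its exons. Both are written 5′ to 3′ on the strand of the gene, and the capitals mark matches to the motifs named after them.
Fgf21 promoter: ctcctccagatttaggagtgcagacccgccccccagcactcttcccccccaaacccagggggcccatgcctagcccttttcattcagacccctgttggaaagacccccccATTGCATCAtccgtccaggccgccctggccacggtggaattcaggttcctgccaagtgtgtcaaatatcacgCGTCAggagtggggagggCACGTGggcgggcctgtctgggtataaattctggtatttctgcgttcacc
Nampt promoter: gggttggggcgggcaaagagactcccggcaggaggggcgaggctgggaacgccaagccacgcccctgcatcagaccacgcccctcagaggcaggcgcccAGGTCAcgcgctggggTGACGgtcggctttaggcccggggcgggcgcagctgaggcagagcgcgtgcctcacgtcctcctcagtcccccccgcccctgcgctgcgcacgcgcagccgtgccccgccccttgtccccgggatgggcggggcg

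7 motifs were searched on both strands: CACGTG (the E-box bound by clock factors), TGACGTCA (the full cAMP response element), TGACG (its core), AGGTCA (the core bound by nuclear receptors), AGGTCANAGGTCA (the paired PPAR element), TGATGNAAT (an amino acid response element) and TTATGNAA (the D-box). In the Fgf21 window CACGTG begins 50 bases before the start, the reverse complement of TGACG begins 68 bases before it, and that of TGATGNAAT begins 140 bases before it. The Nampt window holds TGACG at 135 and AGGTCA at 151 bases before the start. Of 32817 promoter windows of this length, 6.02% hold CACGTG, 17.7% TGACG, 14.0% AGGTCA and 0.817% TGATGNAAT. The AGGTCA core is part of the paired element and TGACG of the full cAMP response element, and both were counted there too. Neither window holds the full cAMP response element, found in 1.55% of windows, the paired PPAR element, found in 0.0335%, or the D-box, found in 3.07%. Over the same stretch of Sirt1, whose window overlaps an exon of another transcript of the gene, there are 2 copies of CACGTG and 1 match to TGACG. In that of Ppargc1a, which overlaps an exon of the gene only at base 51567726 of chromosome 5, there is 1 match to TGACG.

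The first question was how the level of each gene differed between freely fed and calorie-restricted mice. Under caloric restriction Fgf21 and Nampt rose and Enho fell, while Angptl4, Sirt1 and Ppargc1a did not pass the threshold. That is 2 of 6 genes called higher and 1 of 6 called lower, where 9.74% of the 11760 genes with an adjusted p were called higher and 9.24% lower. Their median log2 fold change was 0.76, against 0.012 over all genes with an adjusted p. The values are means over the libraries of a group in normalized counts, which is to say gene counts divided by a size factor per library, and the adjusted p is that of DESeq2 from the authors' deposited table, with genes called at under 0.05. No value per library could be tied to a group, so no SD is given and overlap between groups cannot be stated. In whole liver a change in the RNA of a cell type and a change in the number of such cells cannot be told apart.

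**Figure D1:**
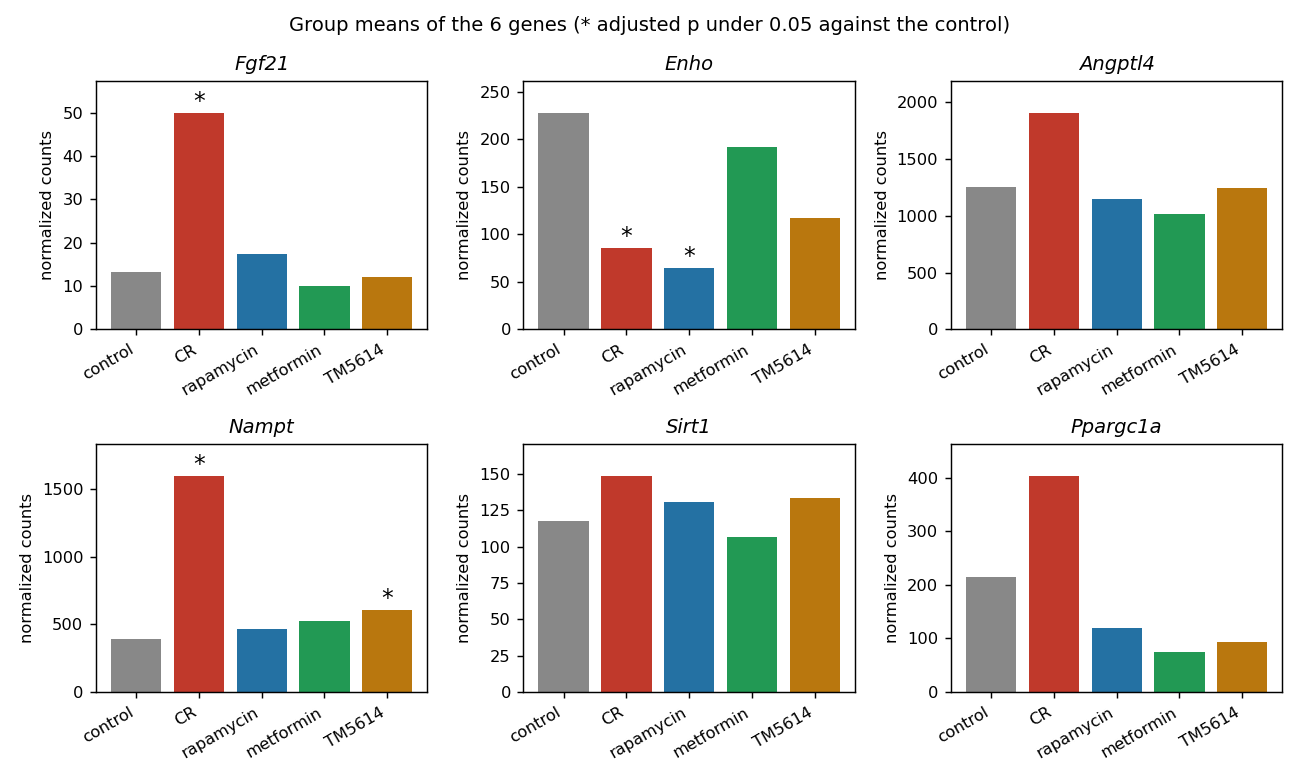
Bars give the group means of the 6 genes in normalized counts (vertical axes start at 0, scales differ) for the control, caloric restriction (CR) and the 3 compounds; no error is known, and asterisks mark an adjusted p under 0.05 against the control per the authors' deposited table. Caloric restriction has the highest mean of the 5 groups for every gene but Enho, which is highest in the control.

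Among the secreted factors, Fgf21 had group means of 13.3 normalized counts in the control, 49.8 under caloric restriction, 17.5 under rapamycin, 10.1 under metformin and 12.1 under TM5614 per the authors' deposited table. Caloric restriction thus stood 3.73-fold above the control (log2 fold change 1.90), and the other 3 groups lay between 10.1 and 17.5. The adjusted p for caloric restriction was 0.0497, just under the threshold, per the authors' deposited table. For TM5614 it was 0.947, and the authors' table gives none for rapamycin (log2 fold change 0.39) or metformin (-0.40). Fgf21 is a weakly expressed gene in these livers: its mean over the groups exceeded that of 14.9% of all genes. Of the 500 other genes nearest to it in mean level (17.8 to 23.7), 3 had a log2 fold change under caloric restriction at least as high, and all 3 were called.

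Acinar cells of the pancreas are known to express Fgf21 strongly, and their markers were higher in the control than elsewhere. Of 19 acinar markers 14 are in the table, and their summed means were 720.2 normalized counts in the control, 37.7 under caloric restriction, 66.7 under rapamycin, 98.6 under metformin and 77.2 under TM5614. The amylase gene Amy2a5 is listed at 183 in the control and at 0 in each of the 4 other groups, and 10 or 11 of the 14 markers are listed at 0 in each of these groups. Under caloric restriction 2 of the 14 were called lower and the other 12 have no adjusted p. Under rapamycin, metformin and TM5614, 13, 14 and 12 have none. Without values per library, it is not known whether all control libraries or only some carry these markers. Caloric restriction had the highest Fgf21 mean and the lowest of these sums. Outside the control, however, each sum was mostly the elastase gene Cela1. It was at 33.9 under caloric restriction, 61.8 under rapamycin, 93.8 under metformin and 73.1 under TM5614, so the order of these 4 sums rests on that gene. What part acinar RNA has in the control mean of Fgf21 was not tested.

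Enho, on chromosome 4 from 41638144 to 41640324, ran the other way. Its group means were 227 in the control, 86.0 under caloric restriction, 64.6 under rapamycin, 191 under metformin and 117 under TM5614 per the authors' deposited table. The control was the highest group, metformin the nearest to it, and rapamycin the lowest. Caloric restriction lowered Enho 2.64-fold (log2 fold change -1.40, adjusted p = 0.00490) and rapamycin lowered it 3.51-fold (log2 fold change -1.81, adjusted p = 0.00398) per the authors' deposited table. It was the 1 member called under rapamycin, where 1.39% of the 10369 genes with an adjusted p were called and 0.675% were called lower. With TM5614 the log2 fold change was -0.96 (adjusted p = 0.163) and with metformin -0.25 (adjusted p = 0.989) per the authors' deposited table; neither passed.

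In all of the table, 51 genes had a lower log2 fold change than Enho under rapamycin, and 261 had a lower one under caloric restriction. Of the 500 genes nearest to Enho in mean level (126 to 149), 5 were as low or lower under caloric restriction, of which 4 were called, and 1 under rapamycin, which has no adjusted p. The 4 comparisons share 1 control. Set against the mean of the other 3 treated groups, the log2 difference of Enho was -1.03 for rapamycin and -0.53 for caloric restriction, and 1.10 for metformin. The acinar markers above were also highest in the control, and their part in the fall of Enho was not tested; the pancreatic elastase gene Cela1 went from 145 in the control to 33.9 under caloric restriction and 61.8 under rapamycin.

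Angptl4, on chromosome 17 from 33773750 to 33781830, had the highest level of the 6, also per kilobase of exon. Its group means were 1252 in the control, 1900.4 under caloric restriction, 1144 under rapamycin, 1015 under metformin and 1243 under TM5614 per the authors' deposited table. Caloric restriction gave the highest mean, and the other 4 groups lay within 1015 to 1252. The log2 fold change of 0.60 (1.52-fold) under restriction had an adjusted p of 0.163 per the authors' deposited table. Of the 500 genes nearest to it in mean level, 45 had at least as high a log2 fold change there, and 39 of those were called. These 45 include larger changes, so the share does not tell how often a change of the size of Angptl4 passed. Adjusted p-values for rapamycin, metformin and TM5614 lay from 0.941 to 0.993. Angptl4 is also made in fat, and 7 of 8 adipocyte markers are in the table, with summed means of 1159 in the control and 1736, 1284, 1636 and 1537 under caloric restriction, rapamycin, metformin and TM5614. Skeletal muscle markers (5 of 6 in the table) summed to 801, 1265, 862, 1233 and 1105 in the same order. Both sums were highest under caloric restriction, no marker of either list was called in any comparison, and their part in the value of Angptl4 was not tested.

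Nampt had the smallest adjusted p of the 6. Its group means were 390.5 in the control, 1594 under caloric restriction, 464 under rapamycin, 523 under metformin and 604 under TM5614 per the authors' deposited table. All 4 treated groups were above the control, and caloric restriction was 2.64-fold above the next highest, TM5614. The rise under caloric restriction was 4.08-fold (log2 fold change 2.03, adjusted p = 4.34e-31 per the authors' deposited table), with 79 genes of the whole table higher. Under TM5614 Nampt rose 1.55-fold (log2 fold change 0.63, adjusted p = 0.0122, likewise the authors'). It was the 1 member called with TM5614, where 3.96% of 10834 genes were called, 2.01% higher and 1.95% lower. The log2 fold changes of 0.42 with metformin (adjusted p = 0.565) and 0.25 with rapamycin (adjusted p = 0.631) missed the threshold of 0.05, per the authors' deposited table.

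Against the mean of the other 3 treated groups rather than the control, the TM5614 value of Nampt turned from 0.63 to -0.51, that of rapamycin from 0.25 to -0.97 and that of metformin from 0.42 to -0.76; caloric restriction is 1 of the groups in each of these means. Of the 500 genes nearest to Nampt in mean level (604 to 846), 1 had as high a log2 fold change under caloric restriction and 5 under TM5614, of which 1 and 3 were called. Nampt is abundant in neutrophils, and 4 of 10 neutrophil markers are in the table. Their summed means were 108 in the control, 72.2 under caloric restriction, 170.1 under rapamycin, 62.8 under metformin and 72.8 under TM5614. S100a8 and S100a9 made the difference in the sum under caloric restriction, while Csf3r was at 15.5 in the control, 16.3 under caloric restriction and 16.2 with TM5614, and Retnlg at 12.4, 13.7 and 8.30. The part of neutrophil RNA in the Nampt values was not tested.

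Sirt1, on chromosome 10 from 63319005 to 63381704, varied least. Group means were 117 in the control, 148 under caloric restriction, 131 under rapamycin, 107 under metformin and 134 under TM5614 per the authors' deposited table, a 1.39-fold span from lowest to highest. None of its changes passed: the log2 fold change under caloric restriction was 0.34 (adjusted p = 0.153), and the adjusted p for the compounds lay from 0.608 to 0.981 per the authors' deposited table. At this level, 82 of the 500 nearest genes had a log2 fold change under caloric restriction at least as high, and 37 of those were called.

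Ppargc1a, on chromosome 5 from 51454250 to 51567726, had the widest span of the 6, 5.40-fold from lowest to highest group, and passed in no comparison. The authors' deposited table gives it means of 214 in the control, 403 under caloric restriction, 119.9 under rapamycin, 74.6 under metformin and 93.5 under TM5614. Caloric restriction stood above the control and all 3 compounds below it. The log2 fold changes were 0.91 under caloric restriction (adjusted p = 0.107), -1.52 with metformin (adjusted p = 0.0912), -1.19 with TM5614 (adjusted p = 0.0777) and -0.84 with rapamycin (adjusted p = 0.412) per the authors' deposited table. Metformin, under which 0.245% of the 7350 genes with an adjusted p were called (0.163% higher and 0.0816% lower), had no member called among the 5 with an adjusted p; at a threshold of 0.1 Ppargc1a would pass there and with TM5614.

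In size these values of Ppargc1a were far out in the table. The gene was selected with them known, so its ranks below are a description and lend no weight to changes that did not pass. Under metformin 74 genes of the whole table had a lower log2 fold change than Ppargc1a, and under TM5614 156 had. Of the 500 genes nearest in mean level (168 to 195), 2 were as low under metformin, of which 0 were called. With TM5614 6 were as low and 3 of them were called. Under caloric restriction 9 were as high, and 7 of them were called. The ratio of caloric restriction to metformin was 5.40, to TM5614 4.31 and to rapamycin 3.36; differences between treated groups were not tested, since the authors' table holds no such comparison and no spread.

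**Figure D2:**
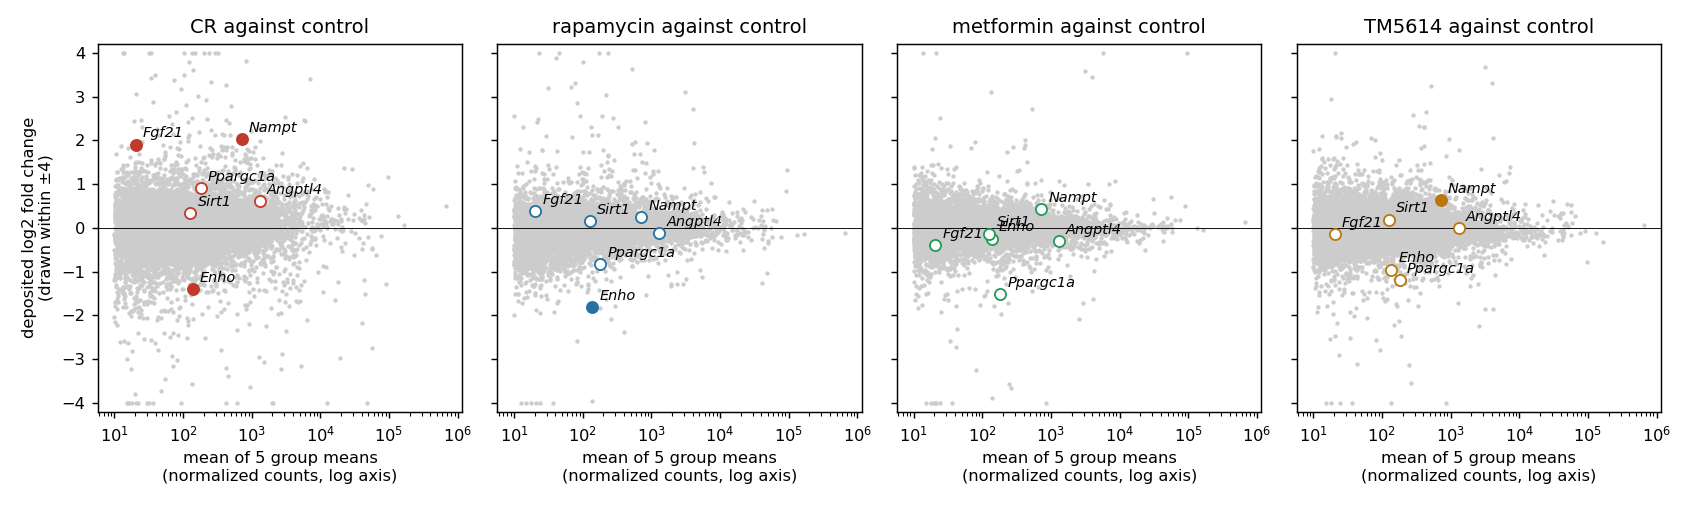
Each panel plots the deposited log2 fold change against the control (vertical axis, drawn within 4 of 0) over the mean of the 5 group means (horizontal log axis, normalized counts) for genes with a mean of at least 10, in grey. Circles are the 6 genes, filled where the adjusted p was under 0.05: Fgf21, Nampt and Enho under caloric restriction, Enho under rapamycin, none under metformin and Nampt with TM5614.

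Per kilobase of exon, Angptl4 was the highest of the 6 in the control, at 354 normalized counts per kilobase. Enho followed at 179, Nampt at 77.3, Ppargc1a at 32.5, Sirt1 at 22.0 and Fgf21 at 14.0. Caloric restriction changed that order: Nampt (315) passed Enho (67.8), and Fgf21 (52.4) passed Sirt1 (27.8), with Angptl4 at 537 and Ppargc1a at 61.2. Enho was also below Nampt under rapamycin (50.9 against 91.9) and with TM5614 (92.3 against 119). Ppargc1a was below Sirt1 under rapamycin (18.2 against 24.5), metformin (11.3 against 20.0) and TM5614, where it was at 14.2. These levels per length rest on exon lengths of GENCODE vM21, and whether neighbours in the order differ beyond their spread is not known.

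The genes most like each member were taken as those with the nearest 4 log2 fold changes, by Euclidean distance, among named genes with a mean of at least 50. Nearest to Fgf21 were Klf6 (distance 0.28), Agpat9 (0.30) and Chac1 (0.39), with log2 fold changes under caloric restriction of 1.68, 2.13 and 1.81. For Nampt they were Txnip (0.32), Fam102a (0.34) and Amigo2 (0.38), with 1.85, 1.78 and 1.86 under caloric restriction and 0.46, 0.75 and 0.61 with TM5614. Enho had no close match: Cdh1 (0.97), Cela1 (0.99) and Fam129b (1.02) were the nearest, and their log2 fold changes under rapamycin, -0.99, -1.23 and -0.97, were smaller in size than that of Enho. Ppargc1a was nearest to Tnfrsf1b (0.53), Cyp26a1 (0.62) and Jund (0.72), which had -1.45, -1.01 and -1.10 under metformin and, like it, passed in no comparison. Sirt1 and Angptl4, which were called in no comparison, had nearer genes than the other members, Tor1aip1 (0.04), Arih1 (0.05) and Golph3 (0.06) for the former and Rgs5 (0.05), Atp1b1 (0.11) and Zfand2a (0.12) for the latter. Most genes have log2 fold changes near 0, so small distances go with small changes. Distances are therefore not compared between members.

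Other genes of the same pathways were then read from lists made by role. Of all genes with an adjusted p, 19.0% were called under caloric restriction. The shares were 1.39% under rapamycin, 0.245% under metformin and 3.96% with TM5614, so a short list with no gene called under a compound says little. Among 25 other secreted liver factors, 6 rose under caloric restriction, 2 fell and 17 did not pass (median log2 fold change 0.52). The retinol carrier Rbp4 (0.74, adjusted p = 1.22e-06) and the selenium carrier Sepp1 (0.55, adjusted p = 1.12e-05) rose per the authors' deposited table, as did the growth factor Fgf1 (1.03) and the hormone Igf1 (0.52). The ghrelin receptor antagonist Leap2 fell from 266 to 106 normalized counts (log2 fold change -1.33, adjusted p = 2.05e-05 per the authors' deposited table). Manf, the other gene that fell, went from 539.9 to 311 (-0.79, adjusted p = 0.00262 per the authors' deposited table). Igfbp2 fell under rapamycin (-1.13, adjusted p = 8.01e-04) and Manf, lower under restriction, rose under metformin (1.09, adjusted p = 0.00114) per the authors' deposited table, and none of the 25 passed with TM5614.

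FGF21 acts through FGF receptors with the co-receptor beta-Klotho, the product of Klb, and its gene is driven by PPARalpha, CREB3L3 and ATF4. Of 10 such genes in the table, Ppara and Creb3l3 rose under caloric restriction, where 19.0% of all genes with an adjusted p were called. So 2 of 10 does not set this list apart. Ppara went from 1144 to 2846 normalized counts (log2 fold change 1.32, adjusted p = 6.42e-08), and Creb3l3 had 0.64 (adjusted p = 0.00111) per the authors' deposited table. With TM5614 Ppara rose (0.79, adjusted p = 0.0146) and Klb fell, from 337 to 216 (-0.64, adjusted p = 0.0302), per the authors' deposited table. Of all genes, 3.96% were called with TM5614. Atf4 passed in no comparison (0.43, adjusted p = 0.229 under caloric restriction), nor did any of the 4 receptor genes Fgfr1 to Fgfr4. Under rapamycin and metformin none of the 10 passed.

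PPARalpha and fasting targets, the wider set to which Fgf21 and Angptl4 belong, held 9 rises, 2 falls and 10 that did not pass among 21 genes under caloric restriction (median log2 fold change 0.50). Of all genes, 9.74% were called higher there and 9.24% lower. The fatty acid hydroxylase gene Cyp4a14 went from 2648 to 14539 (log2 fold change 2.46, adjusted p = 1.93e-13), and its neighbour Cyp4a10 and the thioesterase Acot1 had log2 fold changes of 2.54 and 2.12 per the authors' deposited table. Cyp4a10, Cyp4a14 and Acot1 have close paralogs, so the division of reads among copies is uncertain. The fatty acid binding protein gene Fabp1 and the phospholipid transfer protein gene Pltp fell by 1.23 and fell by 1.70 on that scale. Under rapamycin 7 of the 21 rose and 14 did not pass, where 0.714% of all genes with an adjusted p were called higher; among them were Cyp4a14 (1.28), Pltp (1.17), Vnn1 (0.96), Cyp4a10 (0.90), Acot1 (0.82) and Slc25a20 (0.45) per the authors' deposited table. Fgf21 (0.39, no adjusted p) and Angptl4 (-0.13) were not among the genes called there. None of the 21 passed with metformin or TM5614.

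**Figure D3:**
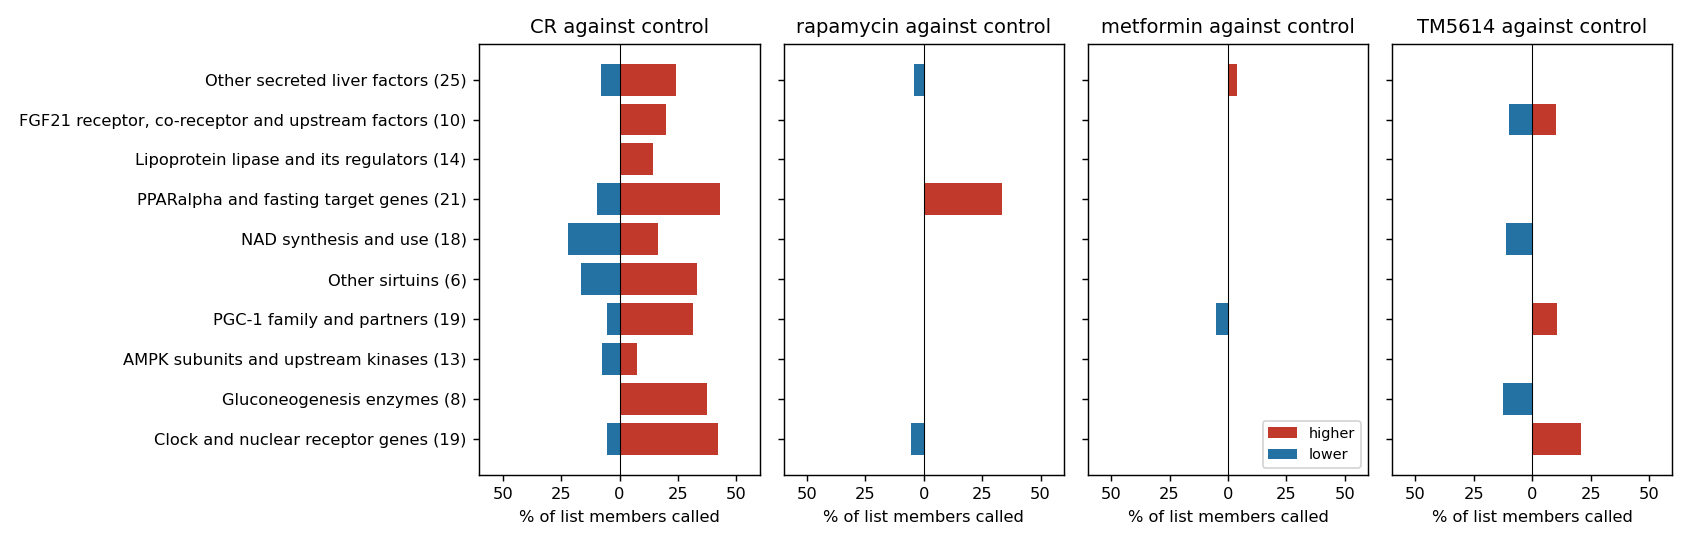
Bars give the percent of each list's genes in the table (number in brackets) called higher (red, right) or lower (blue, left) at an adjusted p under 0.05 against the control, 1 panel per intervention. Under caloric restriction, where 19.0% of all genes tested were called, every list has called genes, from 2 of 14 for the lipoprotein lipase list to 11 of 21 for the PPARalpha and fasting targets; under rapamycin, where 1.39% of all genes were called, 7 of these 21 were.

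Around Angptl4, 14 genes of lipoprotein lipase and its regulators are in the table. Apoa5, an activator of the lipase (0.81, adjusted p = 1.76e-04), and the lipoprotein receptor Vldlr (1.13, adjusted p = 0.0353) rose under caloric restriction per the authors' deposited table, and the other 12 did not pass. As 19.0% of all genes with an adjusted p were called there, these 2 calls do not set the list apart. Lpl itself, named for its role, had 557 normalized counts in the control against 604 under restriction (adjusted p = 0.841) per the authors' deposited table. None of the 14 passed with any of the 3 compounds.

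Other genes of NAD synthesis and use were called in both directions beside Nampt. Of 18 in the table, 3 rose (Tdo2, Nadk and Nnt), 4 fell (Qprt, Haao, Kynu and Ido2) and 11 did not pass under caloric restriction, with a median log2 fold change of -0.13. There 9.74% of all genes were called higher and 9.24% lower. The genes that fell belong to the route from tryptophan: Qprt, its last step before the common path, went from 1108 to 526 normalized counts (log2 fold change -1.08, adjusted p = 4.13e-41), and Haao had -0.41 (adjusted p = 7.13e-05), Ido2 -0.94 and Kynu -0.50 per the authors' deposited table. Tdo2, the first step of the same route in liver, rose (0.70, adjusted p = 1.64e-04). With TM5614, where Nampt also rose, Qprt (-0.27, adjusted p = 0.0158) and Haao (-0.29, adjusted p = 0.0335) fell per the authors' deposited table and the other 16 did not pass. The share of all genes called lower with TM5614 was 1.95%. Nmnat1 and Nmnat3, which act directly after NAMPT, had -0.55 (adjusted p = 0.119) and -0.77 (adjusted p = 0.0871) under caloric restriction.

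Among the 6 other sirtuins, mitochondrial Sirt3 (0.33, adjusted p = 0.0262) and cytosolic Sirt2 (0.34, adjusted p = 0.0443) rose and mitochondrial Sirt5 fell, from 105 to 59.2 (-0.83, adjusted p = 5.01e-04), under caloric restriction per the authors' deposited table. The rises of Sirt2 and Sirt3 were of the size of the log2 fold change of Sirt1, 0.34, which did not pass. None of the 6 passed with a compound. The share of all genes called under caloric restriction was 19.0%.

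Of 19 genes of the PGC-1 family and its partners, 6 rose, 1 fell (Gabpb1) and 12 did not pass under caloric restriction (median log2 fold change 0.26). The shares of all genes called there were 9.74% higher and 9.24% lower. They were 0.245% in either direction with metformin and 3.96% with TM5614. The nuclear receptor gene Esrra went from 173 to 331 (0.94, adjusted p = 1.90e-06), Foxo1 had 0.75 (adjusted p = 9.38e-05), Tfb2m 0.44 and Hnf4a 0.65 per the authors' deposited table, and Nr3c1 and Med1 also rose. Foxo1 fell with metformin (-0.80, adjusted p = 0.00304), and with TM5614 Med1 (0.75, adjusted p = 1.46e-04) and Pprc1 (0.71, adjusted p = 0.0379), a relative of Ppargc1a, rose per the authors' deposited table. Foxo3 shared with Ppargc1a low means under all 3 compounds: 261 in the control, 298 under caloric restriction, 97.2 under rapamycin, 88.8 under metformin and 107 with TM5614, with adjusted p-values of 0.857, 0.182, 0.311 and 0.155 per the authors' deposited table, none past the threshold; it was singled out after its values were seen.

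AMPK is the kinase that senses a fall in cellular ATP. Of 13 genes for its subunits and upstream kinases, Cab39 rose (0.34, adjusted p = 0.00568) and Camkk2 fell (-1.27, adjusted p = 0.00153) under caloric restriction per the authors' deposited table. There 9.74% of all genes with an adjusted p were called higher and 9.24% lower. None of the 13 passed with a compound, but few genes of any kind did. The shares of all genes called were 1.39% with rapamycin, 0.245% with metformin and 3.96% with TM5614. With metformin 9 of the 13 have an adjusted p. Of 8 gluconeogenesis enzymes, Gpt (0.58), Pcx (0.32) and Fbp1 (0.28) rose under caloric restriction, and G6pc fell with TM5614 (-1.86, adjusted p = 0.00161), per the authors' deposited table.

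Clock genes and nuclear receptors were read because Nampt is a known output of the clock. Of 19 in the table, 8 rose, 1 fell and 10 did not pass under caloric restriction (median log2 fold change 0.70). Of all genes with an adjusted p, 9.74% were called higher there and 9.24% lower. Per2 had a log2 fold change of 2.51, Cry1 2.08, Cry2 1.64 and Tef 1.61, and the repressor gene Nr1d1 fell (-1.23, adjusted p = 6.71e-04), per the authors' deposited table. Under rapamycin Dbp fell (-2.37, adjusted p = 0.00787) per the authors' deposited table, while 17 of the 19 did not pass and 1 had no adjusted p. With TM5614 Per2 (1.17), Per3 (2.06), Dbp (1.86) and Tef (1.17) rose per the authors' deposited table, where 2.01% of all genes were called higher. Clock transcripts change through the day, and the hour of collection is not given in the sources used here, so a difference in hour and an effect of the intervention cannot be told apart.

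**Figure D4:**
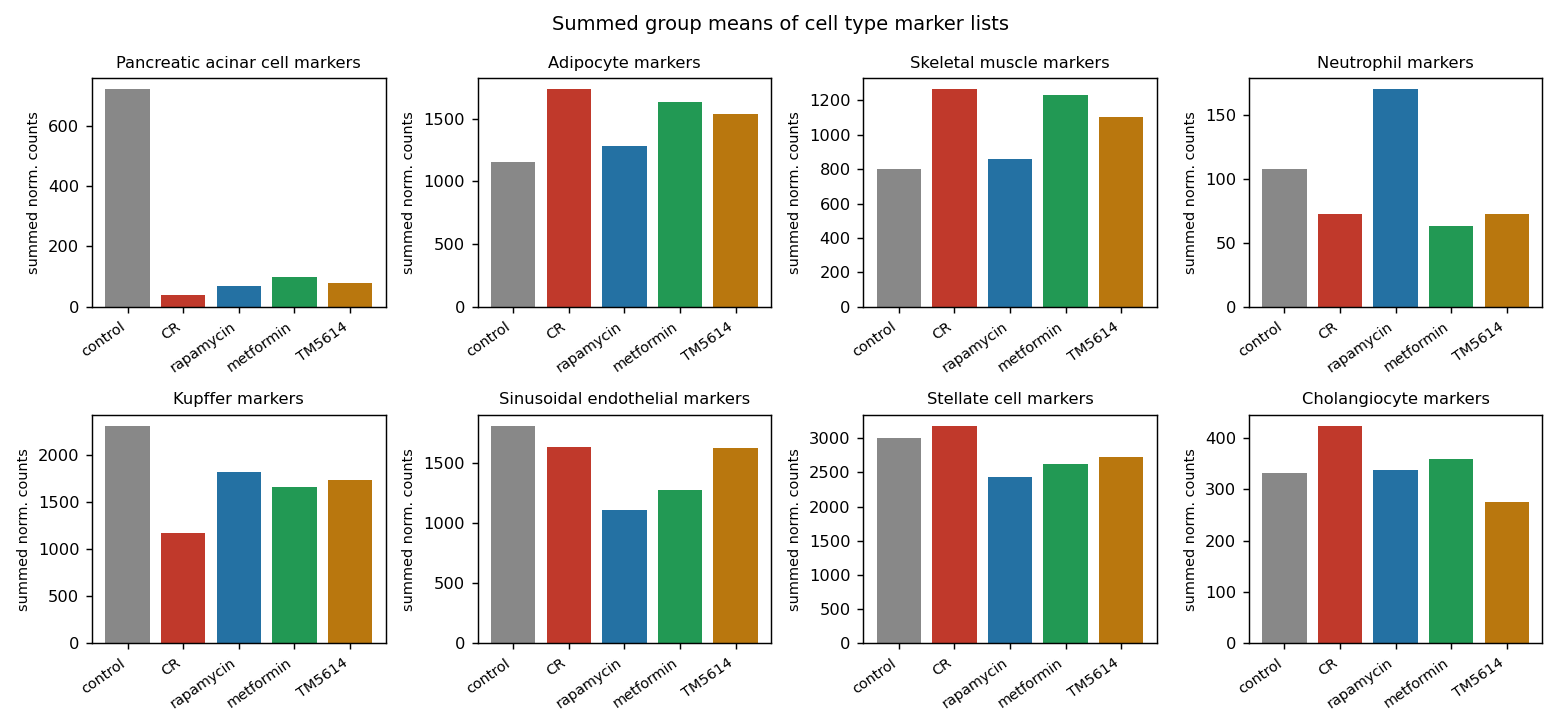
Bars give, for 8 lists of cell type markers, the sum of the group means of the markers in the table (normalized counts, axes from 0) in each of the 5 groups. Acinar markers sum to 720.2 in the control and to at most 98.6 elsewhere; adipocyte and muscle markers are highest under caloric restriction and lowest in the control.

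Hepatocyte markers dominated every group: 9 of 10 are in the table, led by Alb at 606485 in the control, and their sums ran from 840381 under rapamycin to 1132779 under caloric restriction. Alb made up most of these sums, at 557685 under rapamycin and 858112 under caloric restriction. Under caloric restriction 3 of the 9 markers rose, 1 fell and 5 did not pass, where 9.74% of all genes were called higher and 9.24% lower. Of 11 Kupffer cell markers, 10 with an adjusted p, 4 fell under caloric restriction, where 9.24% of all genes were called lower. Marco, with no adjusted p in any comparison, was at 261 in the control. It was at 32.0, 43.6, 27.3 and 44.5 under caloric restriction, rapamycin, metformin and TM5614. Of 10 sinusoidal endothelial markers 3 fell under rapamycin, where 0.675% of all genes were called lower. Lymphocyte markers, 6 of 11 in the table, summed to 28.2 in the control and to at most 44.1 elsewhere. A further column of the authors' deposited table, for the related inhibitor TM5441, which no label names, gives log2 fold changes of -0.99 for Fgf21, -0.63 for Ppargc1a, -0.41 for Enho, 0.28 for Nampt, 0.13 for Angptl4 and -0.13 for Sirt1. It has no group mean and no adjusted p, and its dose is not known, so it was not compared with TM5614.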

How the data were processed

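Liver poly(A) RNA of 18 labelled libraries was sequenced (the design text names 30 mice, but its groups sum to 18). Reads were aligned with HISAT2 2.0.5 to mm10, per the submitters' processing notes; which program and annotation served to count reads per gene, and whether strand was used, is not given in the sources used here. As deposited by the authors, the table holds group means of normalized counts (signal), log2 fold changes and adjusted p-values from DESeq2, as the table's name states. The deposited log2 fold changes lay within 0.0115 of the log2 ratio of means for 99% of genes with a mean of at least 50. The smallest control means above 0 (0.315 to 0.350) resemble the smallest of the 3-library groups (0.299 to 0.398), so which control libraries were averaged is unsure. A table with 18 columns matching no label was not used, and depth per library is unknown.

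Members, lists and rules were chosen with earlier results of these data known. A gene was called at an adjusted p under 0.05. Named genes are the members, per list up to 5 with the smallest adjusted p under caloric restriction plus those called with a compound, and the 3 nearest in pattern; others are named for their role. The comparison with 500 genes of like level was added after the values were seen, so it and the ranks in the whole table only describe the members. The pattern search was checked by planting near copies of genes among the deposited values. That tests the code and not the meaning of the nearest genes. Python 3.11.15, pandas 2.3.3 and matplotlib 3.10.9 were used. Alternatives covered the threshold, the level, pseudocounts, scaling and the reference group. A few genes that these rules name are not reported here.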

Additional observations from a re-analysis of the deposited data

How the results depend on the processing

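No paired analysis was possible because the values are group means without columns per library; for the same reason no library could be left out. The number of the 6 genes called under caloric restriction, 3, became 2 at a threshold of 0.01 (Fgf21 lost) and at a mean of at least 50, and that under rapamycin stayed 1 under all 4 alternatives. For metformin it went from 0 to 1 at a threshold of 0.1. For TM5614 it went from 1 to 0 at a threshold of 0.01, to 0 with a log2 fold change of at least 1 and to 2 at a threshold of 0.1. Of the 24 log2 fold changes, none moved by 1.5-fold or more under the log2 ratio of means, a pseudocount of 1 or 10, or either rescaling, and 1 differed in sign (Angptl4 with TM5614, -0.01 to 0.01 with total rescaling). With the other 3 treated groups as reference, 10 moved by over 1.5-fold besides Nampt with TM5614, the 1 called value that reversed (0.63 to -0.51). In all 6 differed in sign, the others being Nampt with rapamycin (0.25 to -0.97) and metformin (0.42 to -0.76), Fgf21 with rapamycin (0.39 to -0.46), and Enho with metformin (-0.25 to 1.10) and TM5614 (-0.96 to 0.04). For every compound this reference includes caloric restriction, whose mean was the highest of the 5 groups for Nampt and Fgf21. The Nampt mean with TM5614 (604) was above those with rapamycin (464) and metformin (523). The values with no spread limit every ratio between treated groups to a description, and Fgf21 to a gene of few counts.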
